A study of Mus musculus with 24 samples.

Results

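The genes described here are 8 genes of TGF-beta signalling, out of the 17301 genes of the deposited table. They are the ligands Tgfb1 and Tgfb3, the receptors Tgfbr1 and Tgfbr2, the signal carrier Smad3, the inhibitors Smad7 and Ski, and the matrix gene Tgfbi. They were chosen by symbol, by matching the Ensembl identifier of each row without its version, and all 8 were present. All 8 also passed the filter for testing, a mean of at least 1 RPKM (reads per kilobase of gene, scaled to library size) in at least 1 group, which kept 12878 genes.

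Myeloid cells were sorted for RNA sequencing from 2 sources, the colon lamina propria (LP) of C57/BL animals and colon tumour tissue of APC/Min animals, a strain with a truncated Apc that forms intestinal adenomas. The 4 populations in each tissue were F4/80hi MHCIIhi macrophages, F4/80hi MHCIIlow macrophages, monocytes and neutrophils, and each of the 8 groups held 3 libraries, every one from the pooled tissue of 13 to 15 mice. By the methods of the study, Apc Min/+ mice and C57BL/6J controls drank dextran sodium sulphate (DSS), which injures the colon epithelium, for 1 week from an age of 6 to 8 weeks and were killed 4 weeks later at 3 to 4 months. The labels call the LP healthy and do not mention DSS, so whether the LP donors had received it is not settled. The methods give the 2 strains different DSS doses. They also describe different cell isolation, with EDTA before collagenase for LP, collagenase with DNase for tumours, and different Percoll steps. Tumour and LP pools came from different mice, so tissue, genotype and cell isolation differ together and cannot be told apart. The p-values measure the spread between pools. The sorting gates were F4/80hi CD11b+ with high or low MHCII for macrophages, F4/80int Ly6Chi MHCII- for monocytes and Ly6Ghi F4/80- CD11b+ for neutrophils.

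TGF-beta is secreted as a latent complex and has to be released before it can bind. The free ligand binds the type II receptor, Tgfbr2, which recruits and phosphorylates the type I receptor, Tgfbr1. Tgfbr1 then phosphorylates Smad2 and Smad3, which enter the nucleus with Smad4 and act on target genes. Smad7 blocks the active receptor and Ski represses Smad-bound genes in the nucleus, while Tgfbi encodes a secreted matrix protein named after its induction by TGF-beta. In the intestine the pathway is known for restraining inflammation and for shaping monocytes into LP macrophages.

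Summed over genes, libraries had between 12.8 and 41.7 M reads (median 26.4 M). Ly6g, the neutrophil antigen, had at least 859 reads in the 6 neutrophil libraries and at most 40 in the others. H2-Ab1, an MHC class II chain, had a log2 RPKM of 11.95 to 13.36 in MHCIIhi macrophages and 6.67 to 11.05 in MHCIIlow macrophages. The 4 MHC class II genes summed to 1739 to 2340 RPKM in LP monocytes and 1545 to 3466 in LP neutrophils. Both lay within the 876 to 3883 of LP MHCIIlow macrophages. The neutrophil libraries also carried summed RPKM of 5 monocyte markers (Ly6c2, Ccr2 and others) of 644 to 1281, against 769 to 3173 in monocytes and 3.18 to 21.1 in macrophages. In LP these sums overlapped, at 644 to 804 in neutrophils and 769 to 1169 in monocytes. The 7 fibroblast markers summed to 7.59 to 62.0 RPKM in LP libraries and 0.373 to 1.77 in tumour libraries, and the 7 epithelial markers to 5.81 to 139 and 8.83 to 281. In such bulk samples fewer cells of a type and less RNA per cell cannot be told apart.

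The 8 genes lay from near the middle to the top of the range of expression. Tgfbi was among the most abundant messages, with 99.7% of tested genes below its mean RPKM over all libraries, and Tgfbr2, Tgfbr1, Smad3 and Ski had 89.1%, 88.9%, 86.9% and 83.4% of tested genes below them. Tgfb1, Smad7 and Tgfb3 lay near the middle, at 61.4%, 53.5% and 48.5%. On the deposited scaling, the receptors were highest in macrophages, Tgfb1 and Tgfbi in monocytes, and Smad3, Smad7 and Ski in LP neutrophils.

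**Figure D1:**
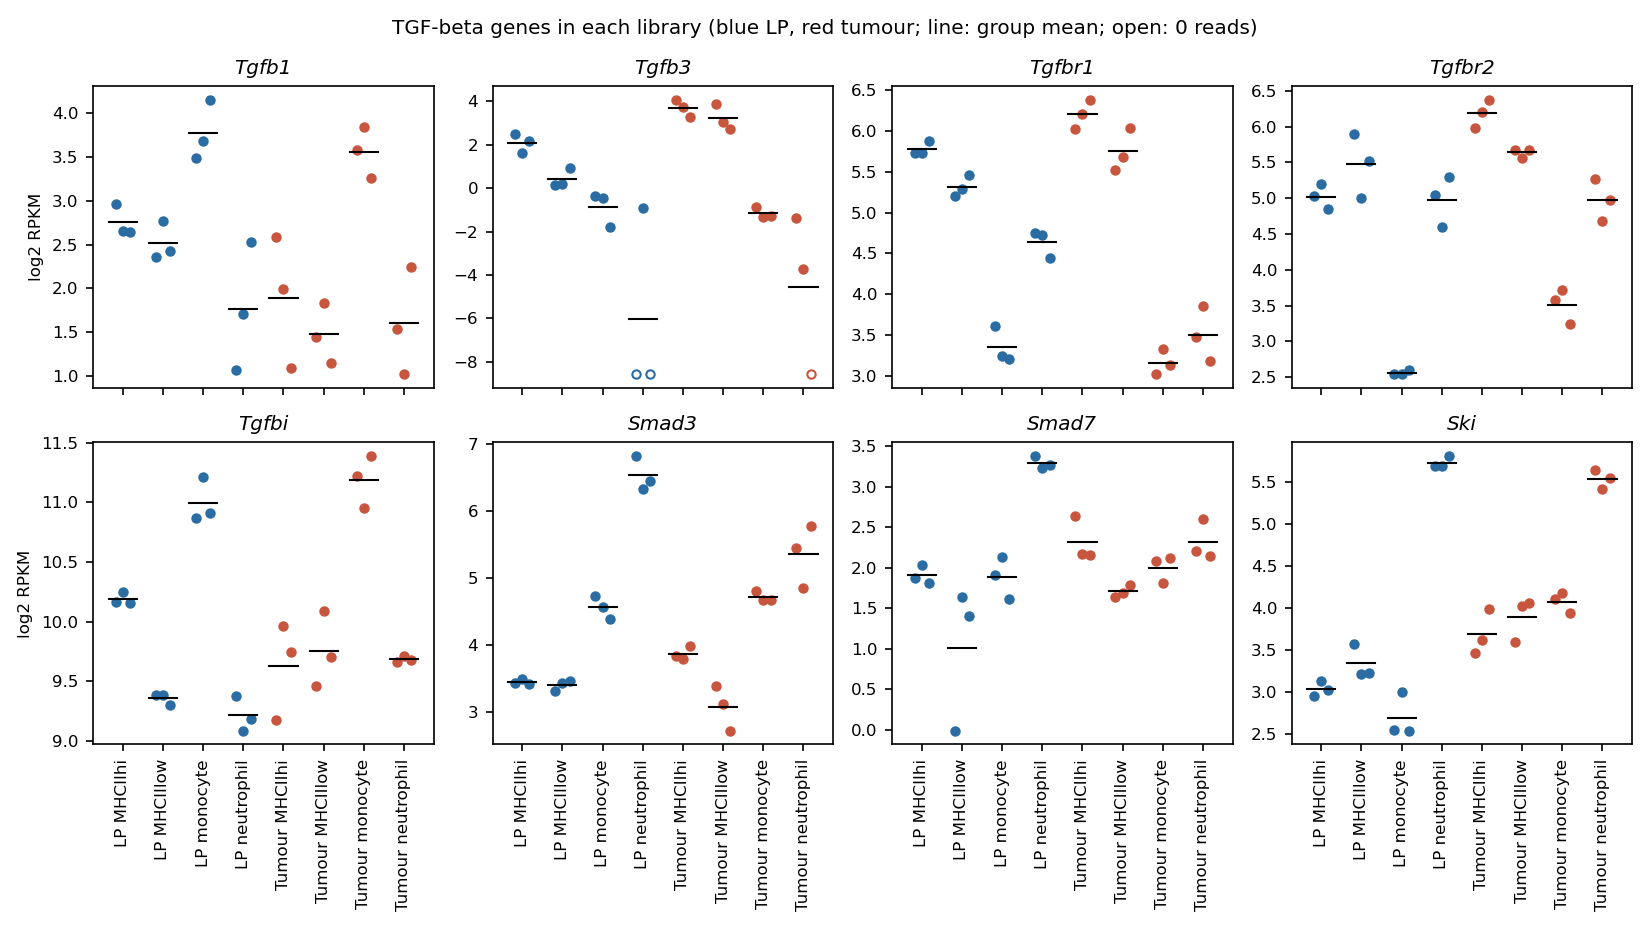
Log2 RPKM (vertical axes, a separate scale per gene) of the 8 genes in the 24 libraries, by group along the horizontal axis, with LP in blue, tumour in red and the group mean as a line. Tgfbr1 and Tgfbr2 peak in tumour MHCIIhi macrophages at 6.2 and 6.19, Tgfb1 in LP monocytes at 3.78, Tgfbi in tumour monocytes at 11.19, and Smad3, Smad7 and Ski in LP neutrophils at 6.53, 3.30 and 5.73. Open points of Tgfb3 had 0 reads, and their height is set by the prior count.

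Tgfb1 (ENSMUSG00000002603.11, GRCm38 chromosome 7, 25687002 to 25705077, plus strand) encodes the main TGF-beta of immune cells. Its log2 RPKM was 3.49, 3.68 and 4.16 in LP monocytes and 3.58, 3.85 and 3.26 in tumour monocytes. In LP it was 2.97, 2.65 and 2.64 in MHCIIhi macrophages and 2.36, 2.77 and 2.43 in MHCIIlow macrophages. All 6 monocyte libraries thus lay above all macrophage libraries. In tumours it was 2.58, 1.99 and 1.09 in MHCIIhi macrophages and 1.45, 1.83 and 1.14 in MHCIIlow macrophages, all below every LP macrophage library except for tumour MHCIIhi pool I, which lay within the range of the LP MHCIIlow libraries. Neutrophils held 1.06, 1.71 and 2.53 in LP and 1.53, 1.01 and 2.25 in tumours. In the order of group means, only the step from tumour monocytes to LP MHCIIhi macrophages separated neighbours without overlap.

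Tgfb3 (ENSMUSG00000021253.6, GRCm38 chromosome 12, 86056745 to 86079041, minus strand), a second ligand that binds the same receptors, had a different distribution. It had a log2 RPKM of 4.07, 3.76 and 3.29 in tumour MHCIIhi macrophages and 3.86, 3.04 and 2.74 in tumour MHCIIlow macrophages. The LP values were 2.48, 1.61 and 2.17 in MHCIIhi and 0.13, 0.21 and 0.93 in MHCIIlow macrophages. The 6 tumour macrophage libraries therefore lay above the 6 from LP, and LP MHCIIlow libraries below LP MHCIIhi libraries. Monocytes held -0.34, -0.46 and -1.80 in LP and -0.88, -1.32 and -1.27 in tumours, from 35 to 108 reads. Neutrophil libraries held 0, 24 and 0 reads in LP and 16, 2 and 0 in tumours, so 4 of these 6 were at or under a floor of 3 reads and fitted differences from neutrophils depend on the prior count. Of the exon bases of Tgfb3, 12.4% overlap Gm48008 on the opposite strand, and the library protocol did not mark strand, so their reads cannot be told apart.

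Set against each other per length, the ligands changed places between the macrophages of the 2 tissues. The log2 RPKM of Tgfb1 less that of Tgfb3 was 0.67 ± 0.33 (SD, n = 3) in LP MHCIIhi and 2.10 ± 0.55 in LP MHCIIlow macrophages. In tumours the same difference was -1.82 ± 0.36 in MHCIIhi and -1.74 ± 0.61 in MHCIIlow macrophages. It ranged from 0.47 to 2.56 over the LP macrophage libraries and from -2.41 to -1.22 over those of tumours. In monocytes Tgfb1 exceeded Tgfb3 by 4.64 ± 1.15 in LP and 4.72 ± 0.39 in tumours.

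**Figure D2:**
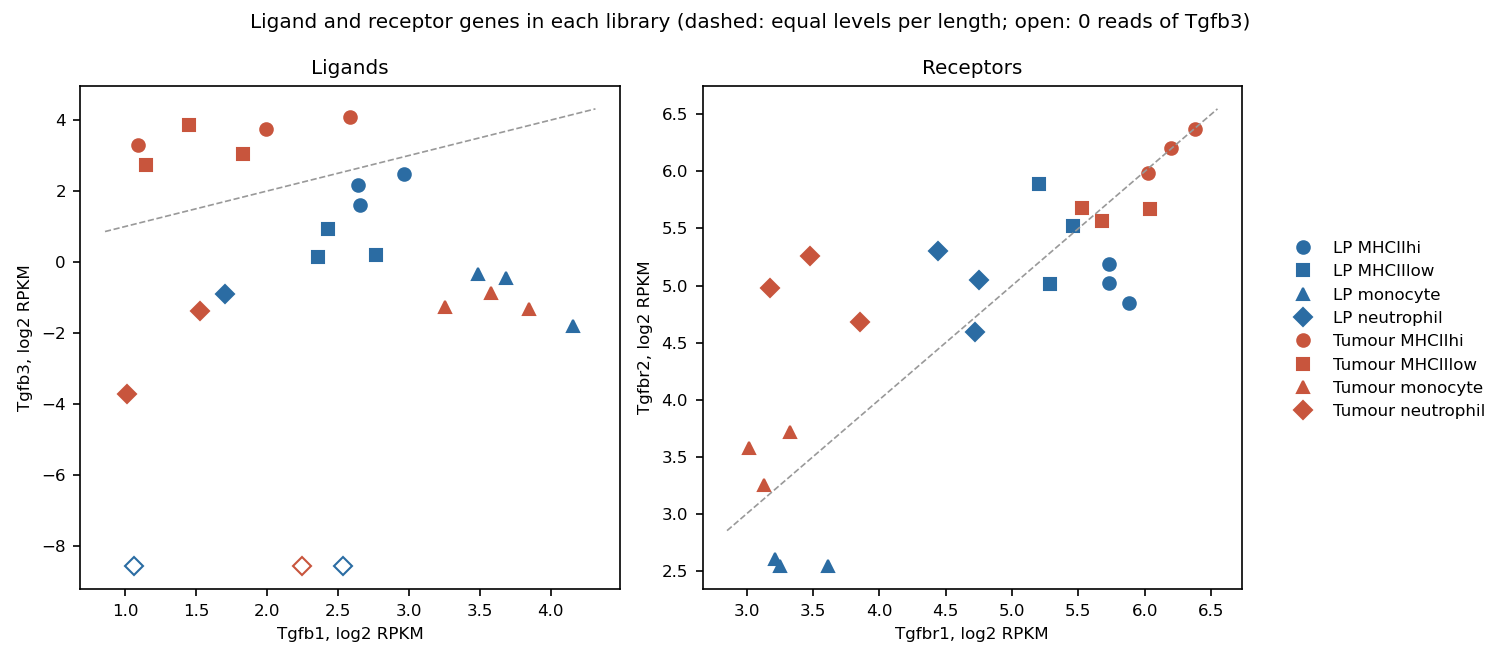
Log2 RPKM of Tgfb3 against Tgfb1 (left) and of Tgfbr2 against Tgfbr1 (right), with 1 point per library, LP in blue and tumour in red, circles for MHCIIhi macrophages, squares for MHCIIlow macrophages, triangles for monocytes and diamonds for neutrophils. The dashed line marks equal levels per length. Tumour macrophages lie above it on the left, where Tgfb1 less Tgfb3 is -2.41 to -1.22, and every other library lies below it. On the right, monocytes sit at the lower left and macrophages at the upper right.

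Tgfbr1 (ENSMUSG00000007613.11, GRCm38 chromosome 4, 47353222 to 47414931, plus strand) encodes the type I receptor kinase and Tgfbr2 (ENSMUSG00000032440.8, GRCm38 chromosome 9, 116084293 to 116175360, minus strand) the type II receptor kinase. RefSeq (GRCm38.p6) lists 2 start sites for Tgfbr1 and 1 for Tgfbr2, and their promoters are shown because both genes were highest in tumour MHCIIhi macrophages. Each run covers 250 bases before to 50 after a start. Capitals mark a CAGA box, CAGACA, the short motif that Smad3 and Smad4 bind.
Tgfbr1, chr4:47352972-47353271, plus strand: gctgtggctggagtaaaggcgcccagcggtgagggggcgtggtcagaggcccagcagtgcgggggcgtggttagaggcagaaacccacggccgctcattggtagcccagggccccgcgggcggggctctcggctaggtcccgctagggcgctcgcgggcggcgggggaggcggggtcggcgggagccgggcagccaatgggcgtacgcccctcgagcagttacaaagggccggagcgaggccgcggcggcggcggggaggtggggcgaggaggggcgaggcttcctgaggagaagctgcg
Tgfbr1, chr4:47385966-47386265, plus strand: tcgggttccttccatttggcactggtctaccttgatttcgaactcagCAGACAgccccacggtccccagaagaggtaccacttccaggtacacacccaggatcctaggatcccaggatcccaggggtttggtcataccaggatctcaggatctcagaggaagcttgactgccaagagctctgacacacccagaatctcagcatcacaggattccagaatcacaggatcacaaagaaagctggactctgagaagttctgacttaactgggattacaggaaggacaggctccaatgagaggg
Tgfbr2, chr9:116175314-116175613, minus strand: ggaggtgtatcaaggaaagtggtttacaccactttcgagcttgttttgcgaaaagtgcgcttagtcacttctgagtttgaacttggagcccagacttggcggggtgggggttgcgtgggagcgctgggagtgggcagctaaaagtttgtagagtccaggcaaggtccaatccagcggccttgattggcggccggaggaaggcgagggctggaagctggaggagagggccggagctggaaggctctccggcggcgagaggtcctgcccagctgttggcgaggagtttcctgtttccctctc
The search ran on both strands for CAGACA and for the palindromic Smad binding element GTCTAGAC, which share the letters AGAC but not the letter before them. Of the 8 genes, 6 had promoters in the table. Among them only the downstream start of Tgfbr1, with 52% GC, held a CAGA box and none held the longer element. Of all 32851 promoters of the same 300 bases, 21% held the former and 0.213% the latter. The other promoters were rich in GC, with 74.7% for the upstream Tgfbr1 start, 59% for Tgfbr2, 77% for Tgfb1, 63.3% for Tgfbi, 67.7% for Smad3 and 85.3% for Ski. A match is a description of the letters, and the files do not say which start was used.

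Tgfbr1 had a log2 RPKM of 6.03, 6.2 and 6.38 in tumour MHCIIhi macrophages, above 5.73, 5.73 and 5.88 in LP MHCIIhi macrophages. MHCIIlow macrophages held 5.52, 5.68 and 6.04 in tumours and 5.20, 5.28 and 5.46 in LP. All macrophage libraries lay above all neutrophil libraries, and every tumour library of a macrophage subset above every LP library of that subset. LP neutrophils held 4.75, 4.72 and 4.44, above tumour neutrophils at 3.48, 3.85 and 3.18. Monocytes were lowest, with 3.61, 3.25 and 3.21 in LP and 3.02, 3.33 and 3.13 in tumours, and overlapped tumour neutrophils.

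Tgfbr2 had a log2 RPKM of 5.98, 6.21 and 6.38 in tumour MHCIIhi macrophages, against 5.03, 5.19 and 4.85 in those of LP. MHCIIlow macrophages overlapped between tissues, at 5.68, 5.57 and 5.67 in tumours and 5.89, 5.01 and 5.52 in LP. Neutrophils of both tissues overlapped LP macrophages, at 5.05, 4.59 and 5.30 in LP and 5.26, 4.68 and 4.98 in tumours. Monocytes were lowest and differed between tissues. LP monocytes held 2.54, 2.55 and 2.60, and tumour monocytes 3.58, 3.71 and 3.25. Tgfbr1 exceeded Tgfbr2 by 0.80 ± 0.25 (log2 RPKM, SD, n = 3) in LP monocytes, while the same difference was -0.35 ± 0.22 in tumour monocytes and -1.47 ± 0.56 in tumour neutrophils.

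Smad3 (ENSMUSG00000032402.8, GRCm38 chromosome 9, 63646767 to 63757994, minus strand), the receptor-regulated Smad of the pathway, was highest in neutrophils. Its log2 RPKM was 6.82, 6.33 and 6.45 in LP neutrophils and 5.44, 4.85 and 5.78 in tumour neutrophils. These groups did not overlap, and the next ranks were tumour monocytes at 4.81, 4.68 and 4.67 and LP monocytes at 4.74, 4.56 and 4.38. Macrophages were lower, from 3.79 to 3.98 in tumour MHCIIhi, 3.42 to 3.49 in LP MHCIIhi, 3.31 to 3.46 in LP MHCIIlow and 2.72 to 3.39 in tumour MHCIIlow libraries. MHCIIlow libraries lay below MHCIIhi libraries in tumours and overlapped them in LP.

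Smad7 (ENSMUSG00000025880.7, GRCm38 chromosome 18, 75367529 to 75395935, plus strand), the inhibitory Smad, was low and, on the deposited scaling, highest in LP neutrophils. It had a log2 RPKM of 3.38, 3.23 and 3.28 in LP neutrophils, above every other library on that scaling, and 2.21, 2.61 and 2.15 in tumour neutrophils. Tumour MHCIIhi macrophages held 2.64, 2.17 and 2.16 and LP MHCIIhi macrophages 1.88, 2.04 and 1.82. Monocytes, at 1.62 to 2.14 in LP and 1.81 to 2.12 in tumours, overlapped LP but not tumour MHCIIhi macrophages. MHCIIlow macrophages were lowest, with 1.64, 1.70 and 1.80 in tumours and -0.01, 1.64 and 1.41 in LP. LP MHCIIlow pool II, with 186 reads of Smad7, stood apart below the other pools of its group.

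Ski (ENSMUSG00000029050.11, GRCm38 chromosome 4, 155154075 to 155222592, minus strand), the co-repressor, was highest in neutrophils of both tissues. Its log2 RPKM was 5.69, 5.69 and 5.81 in LP neutrophils and 5.64, 5.41 and 5.55 in tumour neutrophils. LP monocytes were lowest, at 2.55, 3.0 and 2.54, while tumour monocytes held 4.11, 4.18 and 3.94. The 2 monocyte groups did not overlap. Macrophage means lay between those of the monocyte groups, with 3.46, 3.63 and 3.98 in tumour MHCIIhi, 3.6, 4.02 and 4.06 in tumour MHCIIlow, 2.95, 3.14 and 3.03 in LP MHCIIhi and 3.58, 3.22 and 3.23 in LP MHCIIlow libraries. Smad3 less Ski on the log2 RPKM scale was 1.86 ± 0.31 in LP monocytes, 0.64 ± 0.12 in tumour monocytes, 0.81 ± 0.29 in LP neutrophils and -0.18 ± 0.40 in tumour neutrophils.

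**Figure D3:**
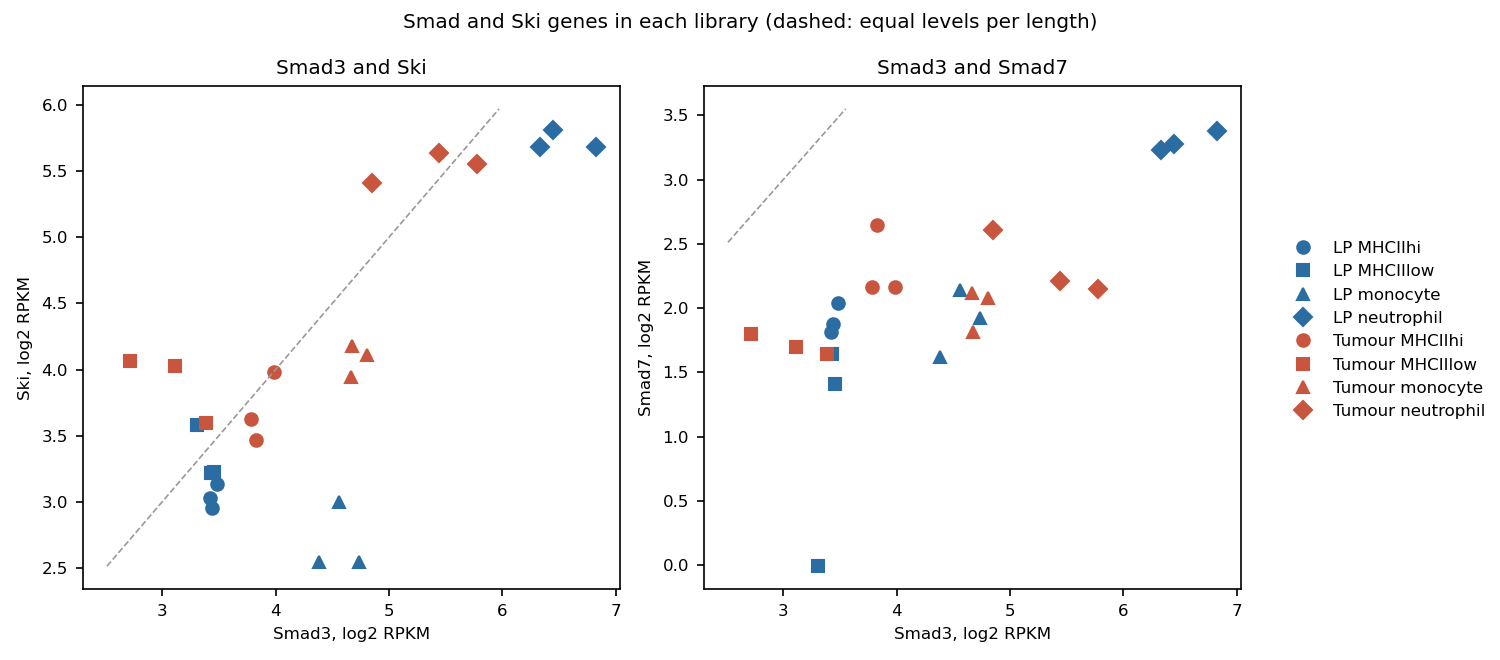
Log2 RPKM of Ski (left) and Smad7 (right) against Smad3, with 1 point per library, LP in blue and tumour in red, circles for MHCIIhi macrophages, squares for MHCIIlow macrophages, triangles for monocytes and diamonds for neutrophils. The dashed line marks equal levels per length. LP neutrophils stand alone at the upper right, with Smad3 from 6.33 to 6.82, and LP and tumour monocytes share their Smad3 level but not that of Ski.

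Tgfbi (ENSMUSG00000035493.9, GRCm38 chromosome 13, 56609523 to 56639562, plus strand), the induced matrix protein, had 16852 or more reads in every library. It had a log2 RPKM of 10.87, 11.21 and 10.91 in LP monocytes and 11.22, 10.95 and 11.39 in tumour monocytes. All 6 monocyte libraries lay above the other 18. LP MHCIIhi macrophages held 10.17, 10.25 and 10.15 and LP MHCIIlow macrophages 9.38, 9.39 and 9.30. Tumour macrophages spread more widely, at 9.17, 9.96 and 9.74 in MHCIIhi and 9.46, 10.09 and 9.70 in MHCIIlow libraries. Neutrophils were at 9.38, 9.09 and 9.18 in LP and 9.66, 9.71 and 9.68 in tumours.

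The main question of the design was how tumour cells differed from the LP cells of the same type. In MHCIIhi macrophages Tgfbr2 rose in tumours by a log2 difference of 1.17 ± 0.21 (SE, limma, adjusted p = 0.000373), a fold of 2.24, and Ski by 0.65 ± 0.16 (adjusted p = 0.00704). Tgfbi fell by 0.56 ± 0.19 (adjusted p = 0.0465). These 3 of 8 genes were called at an adjusted p under 0.05, 2 higher and 1 lower, where 19.5% of all tested genes were called. Libraries of the 2 groups did not overlap for any of the 8 genes, with 6 higher and 2 lower in tumours. The share of all tested genes without overlap was not counted for any comparison, so such counts only describe the 8 genes. The difference of Tgfb3 was 1.62 ± 1.57 (adjusted p = 0.545), with an SE that is shared over all groups and so holds the neutrophil libraries near 0 reads. Within the libraries compared alone its adjusted p was 0.0207, and on log2(RPKM + 1) it was 0.000403 with a difference of 1.42. The difference was -0.87 ± 0.38 for Tgfb1 (adjusted p = 0.123), 0.42 ± 0.17 for Tgfbr1 (adjusted p = 0.0895), 0.42 ± 0.19 for Smad3 (adjusted p = 0.144) and 0.41 ± 0.30 for Smad7 (adjusted p = 0.398).

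The calls of Tgfbi and Ski in MHCIIhi macrophages rested in part on single pools. Without tumour pool I, the lowest for Tgfbi, its difference was -0.34 (adjusted p = 0.259), and the call was also lost without LP pool III, IV or V (adjusted p = 0.0968, 0.127 and 0.0934), without tumour pool VII (0.062), within the libraries compared (0.153), under quantile normalization (0.2) and with summed reads as library sizes (0.108). Ski missed the threshold without tumour pool VII (0.51, adjusted p = 0.0524). Tgfbr2 was called under all 16 alternatives. Tgfb1 passed without tumour pool I, the highest of its group (-1.21, adjusted p = 0.0429). Voom on the reads called 6 of the 8 genes and 29.5% of all genes. Beside these differences, summed RPKM of fibroblast markers was 7.59 to 22.1 in LP and 0.373 to 1.77 in tumour MHCIIhi macrophages, of 5 dendritic cell markers 45.0 to 65.6 and 7.63 to 17.2, and of 6 neutrophil markers 1.65 to 3.58 and 4.92 to 12.3. Their part was not tested.

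In MHCIIlow macrophages Ski rose by 0.55 ± 0.16 (adjusted p = 0.0167), a fold of 1.47, as 1 of 8 genes called, where 23.3% of all genes were called. Libraries did not overlap for 6 genes, with 5 higher and 1 lower in tumours, and again the share of all genes without overlap was not counted. The difference of Tgfb3 was 2.79 ± 1.57 (adjusted p = 0.222), and it was 2.79 with an adjusted p of 0.0116 within the libraries compared and 2.13 with 2.82e-06 on log2(RPKM + 1). Tgfb1 lay at -1.04 ± 0.38 with an adjusted p of 0.0524, and passed the threshold under 8 of 16 alternatives (adjusted p from 0.0151 to 0.172 over all), among them the pool number as replicate block (0.0481). Tgfbr1 had a difference of 0.43 ± 0.17 (adjusted p = 0.0729), Tgfbi 0.39 ± 0.19 (0.160), Smad7 0.70 ± 0.30 (0.106), Smad3 -0.33 ± 0.19 (0.251) and Tgfbr2 0.17 ± 0.21 (0.631). The call of Ski was lost without LP pool III or IV (adjusted p = 0.0630 and 0.0663), without tumour pool V or VII (0.0745 and 0.0802) and within the libraries compared (0.0861). The difference of Smad7 rested on LP pool II, the low one, and was 0.19 without it (adjusted p = 0.643) and 1.01 without LP pool III (0.0223). Tgfbr1 passed without tumour pool I (0.54, 0.0442). The LP MHCIIlow libraries held summed fibroblast markers of 19.8 to 62.0 RPKM against 0.552 to 1.15 in tumour MHCIIlow libraries, and their part in these differences was not tested.

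In monocytes Ski and Tgfbr2 rose in tumours and the other 6 genes overlapped between tissues. Ski rose by 1.38 ± 0.16 (adjusted p = 2.36e-05), a fold of 2.61, and Tgfbr2 by 0.95 ± 0.21 (adjusted p = 0.00524), a fold of 1.93. These were 2 of 8 genes called, where 9.29% of all genes were called, and both passed under all 16 alternatives. The other differences were -0.21 ± 0.38 for Tgfb1, -0.29 ± 1.57 for Tgfb3, -0.20 ± 0.17 for Tgfbr1, 0.19 ± 0.19 for Tgfbi, 0.16 ± 0.19 for Smad3 and 0.11 ± 0.30 for Smad7, with adjusted p from 0.558 for Tgfbr1 to 0.951 for Tgfb3. Summed epithelial markers were 88.6 to 280 RPKM in tumour and 16.5 to 139 in LP monocytes, and B and plasma cell markers 0.167 to 4.66 and 156 to 571. Their part in the rise of Ski and Tgfbr2 was not tested.

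In neutrophils the called genes were all lower in tumours. Smad3 fell in tumours by 1.18 ± 0.19 (adjusted p = 0.000112), Tgfbr1 fell by 1.14 ± 0.17 (adjusted p = 4.34e-05) and Smad7 fell by 0.97 ± 0.30 (adjusted p = 0.0182), so that LP levels were 2.26-fold, 2.20-fold and 1.96-fold those of tumours. These 3 of 8 genes were called, all lower, where 32.2% of all genes were called, 2452 lower and 1690 higher. Ski, at -0.19 ± 0.16, was lower in all tumour libraries but not called (adjusted p = 0.396), and Tgfbi, at 0.47 ± 0.19, was higher in all (adjusted p = 0.0701). Tgfb1 at -0.17 ± 0.38, Tgfbr2 at -0.01 ± 0.21 and Tgfb3 overlapped. Smad3 and Tgfbr1 were called under all 16 alternatives. Tgfb3 passed without LP pool IV, which leaves LP at 0 reads (0.0185). Smad7 was not called without LP pool III (0.0528), without tumour pool I or V (0.0514 and 0.0574), under quantile normalization (0.166) or with libraries centred on their median (0.0737).

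The neutrophil libraries also differed in how the authors had scaled them. The library size used in the deposited values, relative to the reads summed here, was 0.630 to 0.682 in LP and 0.466 to 0.483 in tumour neutrophils, against 0.981 to 1.51 in the other groups. With summed reads as library sizes the median of all genes moved from -0.12 to -0.55 in tumour minus LP neutrophils. The differences were then -1.65 for Smad3, -1.60 for Tgfbr1 and -1.44 for Smad7, all called, and -0.66 for Ski (adjusted p = 0.00601). Neutrophil markers summed to 9969 to 13437 RPKM in LP and 19618 to 28367 in tumour neutrophils, monocyte markers to 644 to 804 and 912 to 1281, epithelial markers to 13.8 to 58.0 and 141 to 281, and B and plasma cell markers to 356 to 1288 and 0.642 to 19.8. Their part in the fall of Smad3, Tgfbr1 and Smad7 was not tested.

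**Figure D4:**
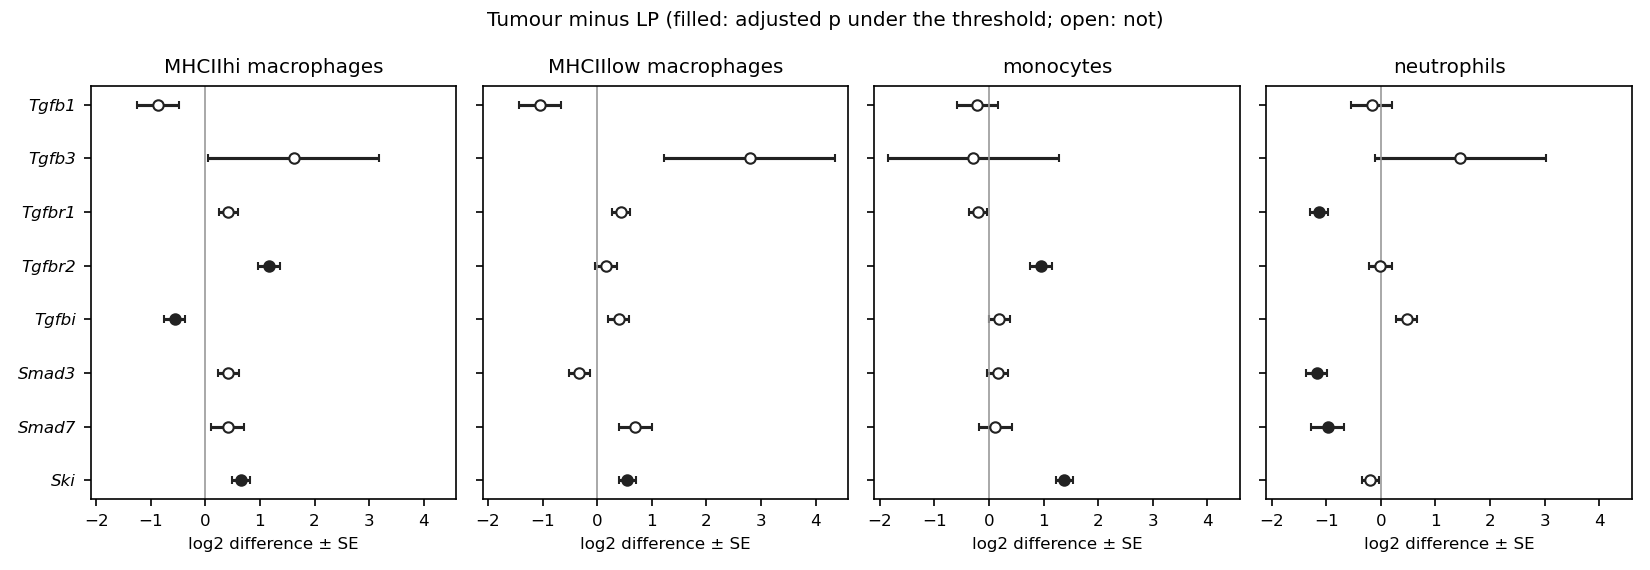
Log2 difference between tumour and LP (horizontal axes, ± SE from limma) of each of the 8 genes in the 4 populations, with 3 libraries per tissue. Filled points passed an adjusted p of 0.05 and open points did not. Ski is filled on the right of 0 in both macrophage subsets and in monocytes, Tgfbr2 in MHCIIhi macrophages and monocytes, and Tgfbr1, Smad3 and Smad7 are filled on the left in neutrophils.

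The difference in response between populations was tested directly, as the tumour minus LP difference of 1 population less that of another. Against monocytes, neutrophils responded lower for Ski by -1.57 ± 0.23 (adjusted p = 0.000304), Smad3 by -1.33 ± 0.27 (0.00430), Tgfbr1 by -0.94 ± 0.24 (0.0181) and Tgfbr2 by -0.96 ± 0.29 (0.0431). These were 4 of 8 genes, all lower, where 9.11% of all genes were called, 708 lower and 465 higher. Smad7 at -1.09 ± 0.43 did not pass (0.119). The mean of both macrophage subsets against monocytes called 1 of 8, where 9.19% of all genes were called. That gene was Ski, at -0.78 ± 0.20 (adjusted p = 0.0157), whose rise was thus larger in monocytes, while Tgfbr1 at 0.63 ± 0.21 did not pass (0.0654) except, among pools left out, without tumour MHCIIlow pool I (0.0443). Between MHCIIlow and MHCIIhi macrophages limma called 0 of 8 genes, where 1.46% of all genes were called, with 3 at an unadjusted p under 0.05. These 3 were Tgfbr2 at -1.0 ± 0.29 (adjusted p = 0.1), Tgfbi at 0.96 ± 0.27 (0.0947) and Smad3 at -0.74 ± 0.27 (0.219), and voom called 2 genes. Tgfbr2 passed without LP MHCIIlow pool III (-1.23, 0.0188) and Tgfbi without tumour MHCIIhi pool V (1.13, 0.0399).

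Several of these calls were fragile. Tgfbr2 in neutrophils against monocytes was called under 7 of 22 alternatives, and lost its call without any of LP monocyte pools III, IV and V, LP neutrophil pools III and V, tumour monocyte pools I and II or tumour neutrophil pools II and V (adjusted p from 0.0625 to 0.106). It was also not called on log2(RPKM + 1) (0.0544), without the filter (0.056), under quantile normalization (0.0557), with libraries centred on their median (0.0765), within the libraries compared (0.078) or with voom (0.0929). Tgfbr1 lost its call without tumour monocyte pool II (0.0507), under quantile normalization (0.161), with libraries centred on their median (0.0508) and within the libraries compared (0.0657). Ski in macrophages against monocytes lost its call without LP monocyte pools III or V (0.0549 and 0.0523), without tumour monocyte pool II (0.0507) and with summed reads as library sizes (0.119). Ski and Smad3 in neutrophils against monocytes kept theirs under all alternatives.

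The macrophage subsets were then compared within each tissue. In tumours Smad3 was lower in MHCIIlow than in MHCIIhi macrophages, and fell by 0.79 ± 0.19 (adjusted p = 0.0486), as 1 of 8 genes called where 1.13% of all genes were called. It was called under 6 of 16 alternatives, with adjusted p from 0.0113 to 0.275. The call was lost without any of the tumour MHCIIhi pools I, V and VII (0.1, 0.0716 and 0.176) and without tumour MHCIIlow pool V or VII (0.125 and 0.213). Tgfbr2 at -0.55 ± 0.21 (adjusted p = 0.248) and Smad7 at -0.61 ± 0.30 (0.468) were also lower in all MHCIIlow libraries and were not called. In LP Tgfbi was lower in MHCIIlow macrophages and fell by 0.83 ± 0.19 (adjusted p = 0.0110), as 1 of 8 genes called where 7.7% of all genes were called. It was not called under quantile normalization (0.0784) or with summed reads as library sizes (0.0602). Tgfb3, at -1.66 ± 1.57 (adjusted p = 0.644), was lower in all LP MHCIIlow libraries and passed on log2(RPKM + 1) at -1.16 (0.00513). Tgfbr1 at -0.47 ± 0.17 (0.107) and Smad7 at -0.90 ± 0.30 (0.0797) were lower in all of them, and Ski at 0.30 ± 0.16 (0.316) was higher. Without LP MHCIIlow pool III, Smad7 (-1.21, 0.0177) and Tgfbr2 (0.68, 0.0436) also passed.

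Macrophages, as the mean of both subsets, were compared with the monocytes of their tissue. In LP 6 of 8 genes were called, 3 in each direction, where 29.5% of all genes were called. Tgfbr2 was higher in macrophages by 2.69 ± 0.18 (adjusted p = 1.01e-09), a fold of 6.43, and Tgfbr1 by 2.19 ± 0.15 (1.09e-09), a fold of 4.56. Ski was higher by 0.50 ± 0.14 (0.0114) with overlapping libraries, and Tgfb1 fell by 1.14 ± 0.33 (0.0123), Tgfbi by 1.22 ± 0.17 (1.37e-05) and Smad3 by 1.14 ± 0.17 (3.02e-05). In tumours 6 of 8 were called, again 3 in each direction, where 38.3% of all genes were called. Tgfb3 was higher by 4.62 ± 1.36 (0.0106), a fold of 24.6, Tgfbr1 by 2.81 ± 0.15 (1.39e-11) and Tgfbr2 by 2.40 ± 0.18 (1.70e-09). Tgfb1 fell by 1.88 ± 0.33 (0.000118), Tgfbi by 1.5 ± 0.17 (5.28e-07) and Smad3 by 1.25 ± 0.17 (5.19e-06). All 6 tumour calls held under all 19 alternatives. Ski, at -0.28 ± 0.14 (0.121), passed without tumour MHCIIhi pool VII (0.0481). In LP, Tgfb1 was not called without LP monocyte pool V (0.0841), nor Ski without LP monocyte pool III or V (0.0679 and 0.0705).

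Neutrophils were compared with monocytes in the same way. In LP 8 of 8 genes were called, 5 higher and 3 lower, where 54.5% of all genes were called. Ski was higher in neutrophils by 3.03 ± 0.16 (adjusted p = 1.29e-11), a fold of 8.17, Tgfbr2 by 2.42 ± 0.21 (7.47e-09), Smad3 by 1.97 ± 0.19 (4.82e-08), Smad7 by 1.40 ± 0.30 (0.000596) and Tgfbr1 by 1.28 ± 0.17 (2.84e-06). Tgfb1 fell by 2.01 ± 0.38 (0.000165) and Tgfbi by 1.78 ± 0.19 (2.13e-07). Tgfb3 was called as lower (0.00896), but with 2 of 3 LP neutrophil libraries at 0 reads its size depends on the prior count, and it was not called on log2(RPKM + 1) at -0.46 (0.144), within the libraries compared (0.101) or without LP neutrophil pool III or V (0.0612 and 0.0582). In tumours 5 of 8 were called, 3 higher and 2 lower, where 58.1% of all genes were called. Ski was higher by 1.46 ± 0.16 (2.50e-07), Tgfbr2 by 1.46 ± 0.21 (4.89e-06) and Smad3 by 0.64 ± 0.19 (0.00768), and Tgfb1 fell by 1.97 ± 0.38 (0.000179) and Tgfbi by 1.5 ± 0.19 (1.69e-06). Smad3 was not called without tumour neutrophil pool V (0.0669), under quantile normalization (0.369) or within the libraries compared (0.0836). Tgfbr1, at 0.34 ± 0.17 (0.0902), passed without that pool (0.0203), and Tgfb3 (0.0691) without tumour neutrophil pool I (0.0123).

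The neutrophil and monocyte levels depend on the scaling. With summed reads as library sizes the median of all genes moved from -0.24 to -1.05 in LP and from -0.36 to -1.42 in tumours. In tumours Smad3 was then lower in neutrophils by a difference of -0.49, Tgfbr1 of -0.79 and Smad7 of -0.81, where the deposited scaling gave 0.64, 0.34 and 0.32. Tgfbr2 and Ski remained higher at 0.33 and 0.32 but were no longer called (adjusted p = 0.178 and 0.118). In LP, Tgfbr1 at 0.45 (0.0538) and Smad7 at 0.58 (0.108) lost their calls.

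A wider set of 56 pathway genes, listed by role, put the 8 genes in context. Of these, 54 were in the table and 45 passed the filter. In MHCIIhi macrophages 12 of 45 were called between tumour and LP, 4 higher and 8 lower, where 19.5% of all genes were called, with a median difference of -0.29 against 0 over all genes. In MHCIIlow macrophages 15 were called, 5 higher and 10 lower (23.3% of all genes, median -0.24 against 0.06). In monocytes 8 were called, 6 higher and 2 lower (9.29% of all genes, 0.19 against 0), and in neutrophils 20, 9 higher and 11 lower (32.2% of all genes, -0.01 against -0.12). Within the MHCIIlow libraries compared alone 5 were called, where the share of all genes was 19.6%. In monocytes 14 were called on log2(RPKM + 1) (13.2% of all genes), 15 with voom (13.7%), 5 without LP pool V and 4 without tumour pool I. In neutrophils 12 were called under quantile normalization (22.3%). Of the 9 latency and activation genes tested, 3 were called in MHCIIhi macrophages, 3 in MHCIIlow macrophages, 1 in monocytes and 3 in neutrophils, all lower, beside 19.5%, 23.3%, 9.29% and 32.2% of all genes called in either direction. Over all genes tested, 1480, 1520, 571 and 2452 were called as lower in these populations, and 1031, 1483, 626 and 1690 as higher.

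**Figure D5:**
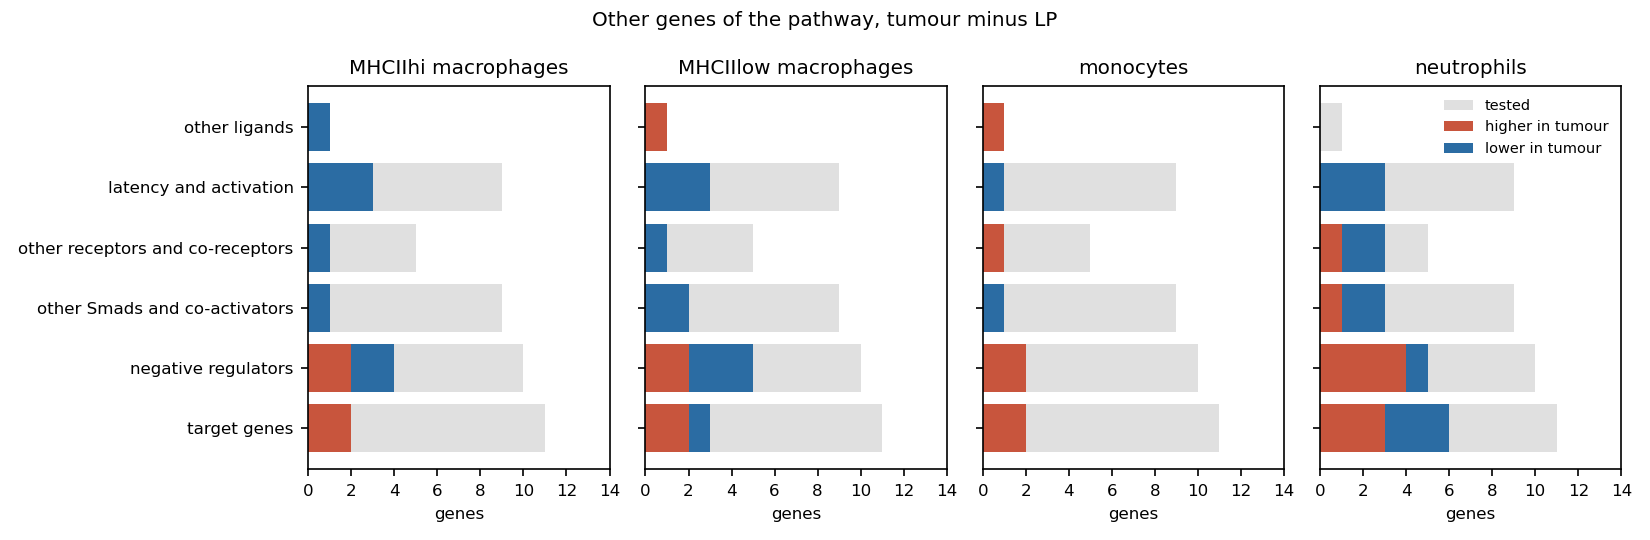
Number of genes (horizontal axes) in 6 lists of other pathway genes that were tested (grey), higher in tumour (red) and lower in tumour (blue) at an adjusted p under 0.05, for the 4 populations. Latency and activation genes show no red in any population, and negative regulators show 4 red of 10 in neutrophils.

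Among the genes that release or hold the ligand, Furin, the protease that cuts the TGF-beta precursor, fell in tumour MHCIIhi macrophages by 2.15 ± 0.25 (adjusted p = 3.83e-06) and in MHCIIlow macrophages by 1.54 ± 0.25 (0.000128). Its log2 RPKM was also lower in tumour neutrophils, at 5.10 to 5.24 against 5.87 to 6.12 in LP. In monocytes it was higher in tumours, at 5.08 to 5.24 against 4.75 to 4.93. Ltbp4, which anchors latent TGF-beta in the matrix, had 82 to 606 reads in LP MHCIIhi libraries against 0 to 18 in tumours, 338 to 1146 against 0 to 64 in MHCIIlow, and 80 to 382 against 0 to 10 in neutrophils. It was called as lower in these 3 populations (adjusted p = 0.00922, 0.00881 and 0.00513), but not without tumour MHCIIhi pool VII (0.05) or tumour MHCIIlow pool I (0.0656), nor on log2(RPKM + 1) in MHCIIhi macrophages (0.116), within the libraries compared in MHCIIlow macrophages and neutrophils (0.0627 and 0.0706) or with voom in neutrophils (0.0653). In monocytes Ltbp4 had 248 to 918 reads in LP and 14 to 77 in tumours, and was not called. Nrros, which holds latent TGF-beta on myeloid cells, fell in tumour monocytes by 0.63 ± 0.16 (0.0128), and was not called without LP pool V (0.0671) or tumour pool I (0.0633). Its log2 RPKM was also lower in tumour neutrophils, at 5.70 to 6.40 against 6.92 to 7.12 in LP, and overlapped between tissues in both macrophage subsets. Beside these falls, the fibroblast markers summed to 7.59 to 22.1 RPKM in LP MHCIIhi and 14.3 to 40.5 in LP monocytes and neutrophils, and to 0.373 to 1.77 in the tumour libraries of all 4 populations. Their part was not tested.

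Of receptors and other ligands, Eng, the co-receptor endoglin, fell in tumour MHCIIhi macrophages by 2.84 ± 0.53 (adjusted p = 0.000675), in MHCIIlow macrophages by 3.30 ± 0.53 (0.000114) and in neutrophils by 3.86 ± 0.53 (1.81e-05), the last from 111 to 218 reads in LP to 2 to 14 in tumours. Inhba, a chain of activin, which signals through related receptors and Smad3, had a log2 RPKM of 7.71 to 8.32 in LP and 9.68 to 10.25 in tumour monocytes. It rose by 1.93 ± 0.57 (0.0374), but was not called without any 1 of the 6 monocyte libraries (adjusted p from 0.0517 to 0.128) or under quantile normalization (0.0669). Acvr1b, the activin type I receptor, rose in monocytes by 1.08 ± 0.25 (0.00746). Ep300, a co-activator of Smads, fell in monocytes by 0.80 ± 0.20 (0.0132), and was not called without LP pool IV (0.0709), without tumour pool I (0.0654) or within the libraries compared (0.084). Smad1, a Smad of the BMP branch, rose from 3 to 16 reads in LP to 25 to 57 in tumour neutrophils, by 3.57 ± 0.47 (1.28e-05).

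Of 11 target genes tested, those called higher and lower in tumours numbered 2 and 0 in MHCIIhi and 2 and 1 in MHCIIlow macrophages. In monocytes they numbered 2 and 0, and in neutrophils 3 and 3. Of 10 negative regulators the numbers were 2 and 2, 2 and 3, 2 and 0, and 4 and 1. Of all genes, 19.5%, 23.3%, 9.29% and 32.2% were called in these populations. The median differences of the targets were 0.34, -0.36, 0.68 and 0.52, against 0, 0.06, 0 and -0.12 over all genes. Among feedback genes and targets, Pmepa1, which a TGF-beta signal induces and which dampens it, rose in tumour MHCIIhi macrophages by 1.55 ± 0.46 (adjusted p = 0.0216), in MHCIIlow macrophages by 1.29 ± 0.46 (0.0481) and in neutrophils by 3.21 ± 0.46 (2.97e-05), the last from 2 to 11 reads in LP to 10 to 49 in tumours. The call in MHCIIhi macrophages was lost without LP pool III or IV or tumour pool I (0.067 to 0.0779), that in MHCIIlow macrophages without LP pools II, III or IV or tumour pools I or VII (0.0528 to 0.207), and that in neutrophils on log2(RPKM + 1) (0.131) and with voom (0.0734). The call in MHCIIlow macrophages was also lost without the filter (0.0536), with libraries centred on their median (0.0566) and within the libraries compared (0.0712). Fn1, fibronectin, rose in MHCIIhi macrophages by 1.52 ± 0.45 (0.0214) and in MHCIIlow macrophages by 1.97 ± 0.45 (0.00302). The former call was lost without LP pool IV or V or tumour pool V (0.0606 to 0.110), and the latter within the libraries compared (0.102). The log2 RPKM of Fn1 was also higher in tumours in the other populations, without overlap. It was 6.97 to 7.22 in LP and 8.34 to 8.51 in tumour monocytes, and 2.63 to 4.06 and 4.28 to 5.06 in neutrophils. Id2 rose in MHCIIhi macrophages by 0.80 ± 0.17 (0.00242) and fell in neutrophils by 0.91 ± 0.17 (0.000519), without overlap in either. Bhlhe40, a transcription factor, rose in MHCIIlow macrophages by 1.28 ± 0.18 (2.78e-05) and in monocytes by 0.84 ± 0.18 (0.00524), the latter not within the libraries compared (0.0799). Tgif2, a co-repressor of Smads, rose in neutrophils by 2.84 ± 0.97 (0.0302), from 8 to 47 to 69 to 92 reads, and lost its call without any of LP pools III and V and tumour pools I, II and V (0.051 to 0.157), within the libraries compared (0.0829) and with summed reads as library sizes (0.0608).

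The genes most like each member across the 24 libraries were sought among 5221 protein-coding genes with a highest group mean of at least 10 RPKM, as a description, since libraries of a population share its other differences. Ski was most like Neurl3, Ncf1 and Klhl24, with Pearson r of 0.97, 0.95 and 0.94. Smad3 was most like N4bp2l1, Nod1 and Zfp608 (0.96, 0.96 and 0.94), and Tgfbr1 like Tpp1, Hvcn1 and Naglu (0.96, 0.95 and 0.95). Tgfbi was most like Mapkapk3, Ccr2 and Copa (0.94, 0.92 and 0.91), of which Ccr2 is the chemokine receptor of monocytes. For the ligands, Tgfb1 was most like Crtc3, Atp2b4 and Zmiz1 (0.89, 0.89 and 0.88), and Tgfb3 like Smim10l1, Tor1b and Pcyox1 (0.92, 0.91 and 0.91). Tgfbr2 was most like Tbc1d4, Ptgs1 and Ddhd2 (0.92, 0.90 and 0.88) and Smad7 like Rin3, Fyb and Tm6sf1 (0.89, 0.88 and 0.86).

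Among the members themselves the highest r over the 24 libraries was 0.80 between Tgfbr1 and Tgfbr2, followed by 0.74 between Smad3 and Ski, 0.72 between Smad3 and Smad7 and 0.71 between Tgfb1 and Tgfbi. The lowest were -0.83 between Tgfb3 and Smad3, -0.79 between Tgfbr2 and Tgfbi and -0.74 between Tgfb1 and Tgfbr2. The part of the 4 populations in these r was not tested, and the values of Tgfb3 include 3 libraries at 0 reads. Over both tissues, MHCIIhi and MHCIIlow macrophage libraries overlapped for each of the 8 genes except Smad7.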

How the data were processed

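Per the labels and the methods of the study, RNA of sorted cells (2 ng) was amplified by SMARTSeq v2, which does not mark strand, and sequenced as paired 51-base reads. The submitters' processing notes name STAR 2.3, featureCounts 1.5 and edgeR with GRCm38. The authors deposited log2 RPKM values per gene after dropping genes with few reads. The values included a prior count of 0.25 reads in an average library, and all 415224 values came out as whole reads within 0.005 reads once that prior was removed.

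The deposited log2 values were fitted with limma 3.58.1 (trend, R 4.3.3) as 8 group means over all 24 libraries. Genes with a mean of at least 1 RPKM in at least 1 group were tested (12878 of 17301), with Benjamini-Hochberg adjustment within each of 13 comparisons and a threshold of 0.05. An adjusted p in brackets after a difference, and every ± SE, is from this fit unless another is named. All p-values are two-sided. Depth was 12.8 to 41.7 M reads per library, and a floor of 3 reads was taken as the limit of detection, for counting error only. Groups came from the labels, and replicates are pools of mice from separate experiments.

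Named pathway genes were, per tumour minus LP comparison, the 3 with the largest change in each direction among those called with non-overlapping groups. A gene that this rule names is not reported here. The genes most like each member were the 3 with the highest Pearson r. Inhba outside monocytes, Id2 in neutrophils, and the further populations given for Furin, Ltbp4, Nrros, Eng and Fn1 were chosen after their values were seen. The members, pathway lists and marker lists were chosen with earlier results of these data known. Alternatives were other offsets (log2(RPKM + 1), log2(RPKM + 0.1)), filters, scalings, the libraries compared alone, a replicate block, voom on the reads, and each library left out; summed reads as library sizes was added after seeing the data. The scripts were tested on simulated data. Identifiers, coordinates and overlaps are from GENCODE M21 and promoters from RefSeq.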

Additional observations from a re-analysis of the deposited data

Results flagged for a closer look

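In 5 cases the tumour minus LP difference of a gene differed between populations by the test of that difference in limma, each with 3 libraries per group. Against monocytes, the log2 difference in neutrophils was lower for Ski by -1.57 ± 0.23 (SE, adjusted p = 0.000304), for Smad3 by -1.33 ± 0.27 (adjusted p = 0.00430), for Tgfbr2 by -0.959 ± 0.29 (adjusted p = 0.0431) and for Tgfbr1 by -0.937 ± 0.24 (adjusted p = 0.0181). The mean of both macrophage subsets was lower than monocytes for Ski by -0.779 ± 0.20 (adjusted p = 0.0157). The comparisons share the monocyte libraries. The pools and settings without which the last 3 were not called are given with the comparison above.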

How the results depend on the processing

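The 8 genes gave 90 results and 1560 alternatives, of which 1393 kept direction and side of the threshold, 67 gained a call, 68 lost one and 32 reversed. The cause was not tested. The counts of members that follow are not given for every setting. Some single calls gained or lost elsewhere, such as Tgfb3 in MHCIIhi macrophages on log2(RPKM + 1), are given with the comparisons above. In tumour minus LP, the number of members called in MHCIIhi macrophages was 6 with voom (29.5% of all genes, against 3 and 19.5% in the fit reported) and 1 to 3 with 1 pool left out. In MHCIIlow macrophages, against 1, it was 3 on log2(RPKM + 1), on log2(RPKM + 0.1) and under quantile normalization, 2 with a mean of at least 5 RPKM, with libraries centred on their median, within the libraries compared and with summed reads as library sizes, 4 with voom, and 0 to 2 with 1 pool left out, where these settings called 19.6% to 33.4% of all genes. Between macrophage subsets of tumours, against 1, it was 0 on both other offsets, without the filter, within the libraries compared and with summed reads (0.0311% to 1.66% of all genes), and 0 to 1 with 1 pool left out. In LP, against 1, it was 2 on log2(RPKM + 1) and within the libraries compared (13.2% and 6.09% of all genes), 4 with voom (14.3%), and 1 to 3 with 1 pool left out. For the difference in tumour effect between macrophage subsets, against 0, it was 1 on log2(RPKM + 1) and under quantile normalization (3.67% and 2.62% of all genes), 2 with voom (4.19%), and 0 to 1 with 1 pool left out. Between macrophages and monocytes, against 1, it was 3 on log2(RPKM + 1) and within the libraries compared, 2 on log2(RPKM + 0.1), with a mean of at least 5 RPKM, under quantile normalization and with voom (11.4% to 15% of all genes over these settings), and 0 to 2 with 1 pool left out. Between neutrophils and monocytes, against 4, it was 2 under quantile normalization and with centred libraries (4.1% and 8.65% of all genes), and 2 to 4 with 1 pool left out. There Tgfbr1 and Tgfbr2 also lost their calls within the libraries compared, and Tgfbr2 without the filter, on log2(RPKM + 1) and with voom.

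Most reversals were of differences near 0. In tumour minus LP monocytes, quantile normalization gave 0.0388 for Tgfb3 and -0.16 for Tgfbi, and summed reads gave -0.0032 for Smad3 and -0.0470 for Smad7. In neutrophils, quantile normalization gave 0.0445 for Tgfb1 and 0.0055 for Tgfbr2, centring gave 0.0738 for Tgfb1, 0.24 for Tgfbr2 and 0.0514 for Ski, and log2(RPKM + 1) gave -0.0156 for Tgfb3. Between macrophage subsets of LP, summed reads gave 0.0123 for Tgfb1 and 0.20 for Smad3, and quantile normalization 0.0432 for Smad3. In macrophages minus monocytes of tumours, Smad7 was -0.12 under quantile normalization and -0.16 with centring, and Ski 0.0584 with summed reads. In neutrophils minus monocytes of tumours, summed reads gave -0.79 for Tgfbr1, -0.49 for Smad3 and -0.81 for Smad7. With 1 pool left out, tumour minus LP ranged from -0.0668 to 0.37 for Tgfbr2 in MHCIIlow macrophages, from -0.0245 to 0.24 for Smad7 in monocytes, and in neutrophils from -0.52 to 0.21 for Tgfb1, -0.13 to 4.01 for Tgfb3 and -0.20 to 0.15 for Tgfbr2. Tgfbi ranged from -0.10 to 0.29 between macrophage subsets of tumours, and Smad7 from -0.0826 to 0.0709 in macrophages minus monocytes of tumours.

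Pools share numbers across groups, and the labels of the tumour samples call these numbers donors. Over 29 pairs of same-numbered libraries of a tissue, deviations from the group means correlated at -0.066 to 0.255 (median 0.0169). The fit reported did not pair samples by number. A correlation over all genes cannot exclude pairing for single genes, so comparisons between groups of the same tissue may leave a pairing unused. With the pool number as a replicate block the members called in MHCIIlow macrophages were 2 instead of 1, by the gain of Tgfb1 (-1.06, adjusted p = 0.0481), and no other call changed. Tgfb3 had at most 3 reads in 4 of 6 neutrophil libraries, so its differences there depend on the prior count.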

Other observations

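Inhba, the activin chain, differed between populations in more than monocytes. Its log2 RPKM was 3.72 to 4.25 in LP and 0.858 to 2.70 in tumour MHCIIhi macrophages, where it fell by 2.14 ± 0.57 (SE, limma, adjusted p = 0.0110). In MHCIIlow macrophages it was -0.518 to 2.53 in LP and 2.34 to 3.74 in tumours, a difference of 1.82 ± 0.57 (adjusted p = 0.0249) with overlapping libraries. It was highest in monocytes of both tissues, at 7.71 to 10.25.

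Summed RPKM of the other marker lists varied between groups. The 8 macrophage markers summed to 4252 to 7891 in macrophages and 601 to 1296 in monocytes and neutrophils. The 4 platelet markers in the table summed to 131 to 680 in macrophages and 3.98 to 141 in the others. The 3 eosinophil markers in the table reached 20.6 to 42.2 in neutrophils and at most 5.96 elsewhere. The 5 dendritic cell markers summed to 45.0 to 65.6 in LP and 7.63 to 17.2 in tumour MHCIIhi macrophages, and 75.0 to 146 and 1.99 to 17.0 in neutrophils. The 5 endothelial markers were at 0.883 to 20.9 and the 6 T and NK cell markers in the table at 0.164 to 6.83 over all libraries. The 4 MHC class II genes summed to 16673 to 45690 in MHCIIhi and 876 to 9853 in MHCIIlow macrophages.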
